A study of Mus musculus with 10 samples.

Results

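Glutamate receptors and the proteins that hold them at excitatory synapses were followed in whole hippocampi of mice with an axonal lesion, with or without transferred myelin-specific T cells. The set held 34 genes chosen by name: subunits of AMPA, NMDA, kainate and delta receptors, metabotropic receptors, auxiliary subunits, postsynaptic scaffolds, vesicular glutamate transporters and the kinase CaMKII. Probe sets whose only platform symbol was one of these names were taken, which gave 65 of the 45037 probe sets and 33 of 18193 named genes. Grin1, which encodes the obligatory NMDA receptor subunit, had no probe set under this rule and was not analysed here. A gene with several probe sets is given by the one whose signal, averaged over the 10 arrays, was highest.

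The mice were adult female SJL/J animals, obtained at an age of 8 to 10 weeks. Of these, 5 had the axonal lesion alone (AxL) and 5 were given myelin-specific T cells (TPlp cells) by adoptive transfer before the lesion (TPlp+AxL). All 10 had the lesion and were sampled 2 days after it, so no unlesioned hippocampus and no T cell transfer without a lesion is compared. Each mouse gave 1 array of biotinylated cRNA, and values are log2 signals that the authors made with RMA.

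Fast excitatory transmission in the hippocampus runs on glutamate. AMPA receptors carry most of the fast current, NMDA receptors admit calcium when release and depolarization coincide, and kainate and metabotropic receptors tune release and excitability on both sides of the synapse. In the postsynaptic density, PSD-95 family proteins bind receptor tails and Shank proteins link those complexes to the actin skeleton. CaMKII, activated by calcium that enters through NMDA receptors, strengthens these synapses.

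Arrays differed in ways that touch these genes. Their medians lay between 7.88 and 7.92, and the correlation of an array with its closest other array lay between 0.993 (AxL 4) and 0.998. Their 99th percentiles ran from 12.88 to 13.04 in AxL and from 12.73 to 12.95 in TPlp+AxL. Markers described the tissue: 8 of 8 neuronal markers such as Rbfox3 and Snap25 had mean log2 signals from 11.89 to 13.61, choroid plexus markers stood 0.79 to 1.70 above their own mean in AxL 3, AxL 5 and TPlp+AxL 1 and at -0.55 to -0.42 from it in the other 7 arrays, and thalamic markers stayed between -0.11 and 0.08 of theirs. Across all probe sets the change moved with signal level, from a median of 0.03 at mean signals of 7 to 8 to -0.14 above 12. Of the 6383 probe sets with a mean signal of at least 10, 85.6% were lower in TPlp+AxL.

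The study set the 2 groups against each other to find transcripts that transferred T cells raise or lower in the lesioned hippocampus, with neurogenesis after the lesion in view. In whole tissue, fewer cells of a type and less RNA per cell cannot be told apart. Shank3 and Camk2b fell, and the other 31 measured members did not pass the threshold, which was an adjusted p under 0.05, from limma with Benjamini-Hochberg adjustment across the 45037 probe sets. Of the 33 members 2 fell and 0 rose (9 lower and 0 higher at an unadjusted p under 0.05), where 0.28% of all genes and 0.971% of the probe sets with a mean signal of at least 10 were called lower and 0.978% of all genes were called higher. Over all probe sets 0.835% were called, 0.189% lower and 0.646% higher. Neither call held after renormalization, under which the median change above a mean signal of 12 was 0.0025 (quantile) or -0.0086 (cyclic loess). With quantile normalization repeated, the change of Shank3 was -0.23 (adjusted p = 0.07175) and that of Camk2b -0.13 (adjusted p = 0.387), and with cyclic loess they had -0.23 (adjusted p = 0.0613) and -0.13 (adjusted p = 0.317). Without AxL 3, AxL 5 and TPlp+AxL 1, the arrays with high choroid plexus markers, neither passed, at -0.30 (adjusted p = 0.262) for Shank3 and -0.32 (adjusted p = 0.131) for Camk2b. In that setting 1 of the 45037 probe sets passed, against 376 with all 10 arrays. Its calls therefore cannot show whether these 2 genes depended on those arrays.

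The promoters of these 2 genes are shown because both genes passed the threshold in the deposited values. Each is the RefSeq window (GRCm38.p6) from 250 bases before to 50 bases after the start, 5′ to 3′ on the gene's strand, with GC boxes in capitals.
Shank3 (chr15:89499358-89499657, plus strand): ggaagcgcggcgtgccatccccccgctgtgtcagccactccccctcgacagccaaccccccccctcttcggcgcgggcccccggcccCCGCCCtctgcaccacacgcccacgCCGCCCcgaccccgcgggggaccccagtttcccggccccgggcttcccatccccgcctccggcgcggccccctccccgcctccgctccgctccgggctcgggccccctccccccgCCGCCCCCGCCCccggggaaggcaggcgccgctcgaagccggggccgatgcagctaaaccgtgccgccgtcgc
Camk2b (chr11:6065699-6065998, minus strand): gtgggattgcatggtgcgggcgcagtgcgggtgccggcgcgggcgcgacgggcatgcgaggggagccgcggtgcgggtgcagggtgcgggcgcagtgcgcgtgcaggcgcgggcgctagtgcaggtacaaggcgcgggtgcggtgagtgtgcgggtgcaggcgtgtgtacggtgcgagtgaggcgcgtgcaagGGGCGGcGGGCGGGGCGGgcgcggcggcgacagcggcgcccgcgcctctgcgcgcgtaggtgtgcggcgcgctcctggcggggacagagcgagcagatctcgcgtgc
The letters GGGCGG (the GC box), read on both strands with overlaps counted, occurred 4 times at Shank3 and 3 times at Camk2b, and stood in 35.7% of the 32851 RefSeq promoters of this length. Both windows were rich in G and C, at 81.0% and 77.3% against a median of 52.7% over all promoters. Neither held TGACG (the half-site of the cAMP response element, in 20.8% of all promoters). A promoter entry was matched for 22 of the 33 members, with 31 windows in all, of which 15 (48.4%) held a GC box. Matches of letters are a description of the reference sequence and do not show binding.

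Among the scaffolds, the proteins that organize the postsynaptic density, 1 of 5 measured genes fell and 0 rose. Shank3, whose protein ties receptor complexes to Homer and actin, had log2 signals of 11.04, 11.13, 11.17, 11.23 and 11.26 in AxL and 10.83, 10.70, 10.86, 10.87 and 10.90 in TPlp+AxL. Every TPlp+AxL array lay below every AxL array. The means were 11.17 ± 0.09 (SD, n = 5) and 10.84 ± 0.08 (SD, n = 5), a fall to 79.5% of the AxL signal (log2 change -0.33, SE 0.05, adjusted p = 0.01305). It passed with any single array left out, with adjusted p from 0.0122 to 0.0419. Against the 1296 probe sets within 0.25 of its mean signal, whose median change was -0.11, Shank3 was 0.22 lower, and 1.08% of them had a more negative change.

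Dlg4, which encodes PSD-95, had log2 signals of 11.10, 10.87, 10.95, 11.54 and 10.91 in AxL and 10.70, 10.72, 10.57, 10.77 and 10.78 in TPlp+AxL. The groups did not overlap, and AxL 4 was the highest array. The log2 change of -0.37 (SE 0.11) missed the threshold (adjusted p = 0.178), and it was -0.25 without AxL 4 (adjusted p = 0.0891). Other probe sets of Dlg4 had -0.27 and -0.07, and the first of these also had its highest value in AxL 4 (9.81, against 8.06 to 8.92 in the other AxL arrays). Dlg3, a relative of PSD-95 on the X chromosome, had 10.98, 10.78, 11.03, 11.28 and 10.96 in AxL and 10.91, 10.74, 10.71, 10.69 and 10.86 in TPlp+AxL, with overlap (log2 change -0.22, SE 0.08, adjusted p = 0.260). Dlg2, another family member, had a change of -0.09 (-0.06 without AxL 4), where the median at its signal level was -0.11. Shank1, the relative of Shank3, had 0.01 (95% interval -0.07 to 0.10) from a probe set with a mean signal of 6.93.

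**Figure D1:**
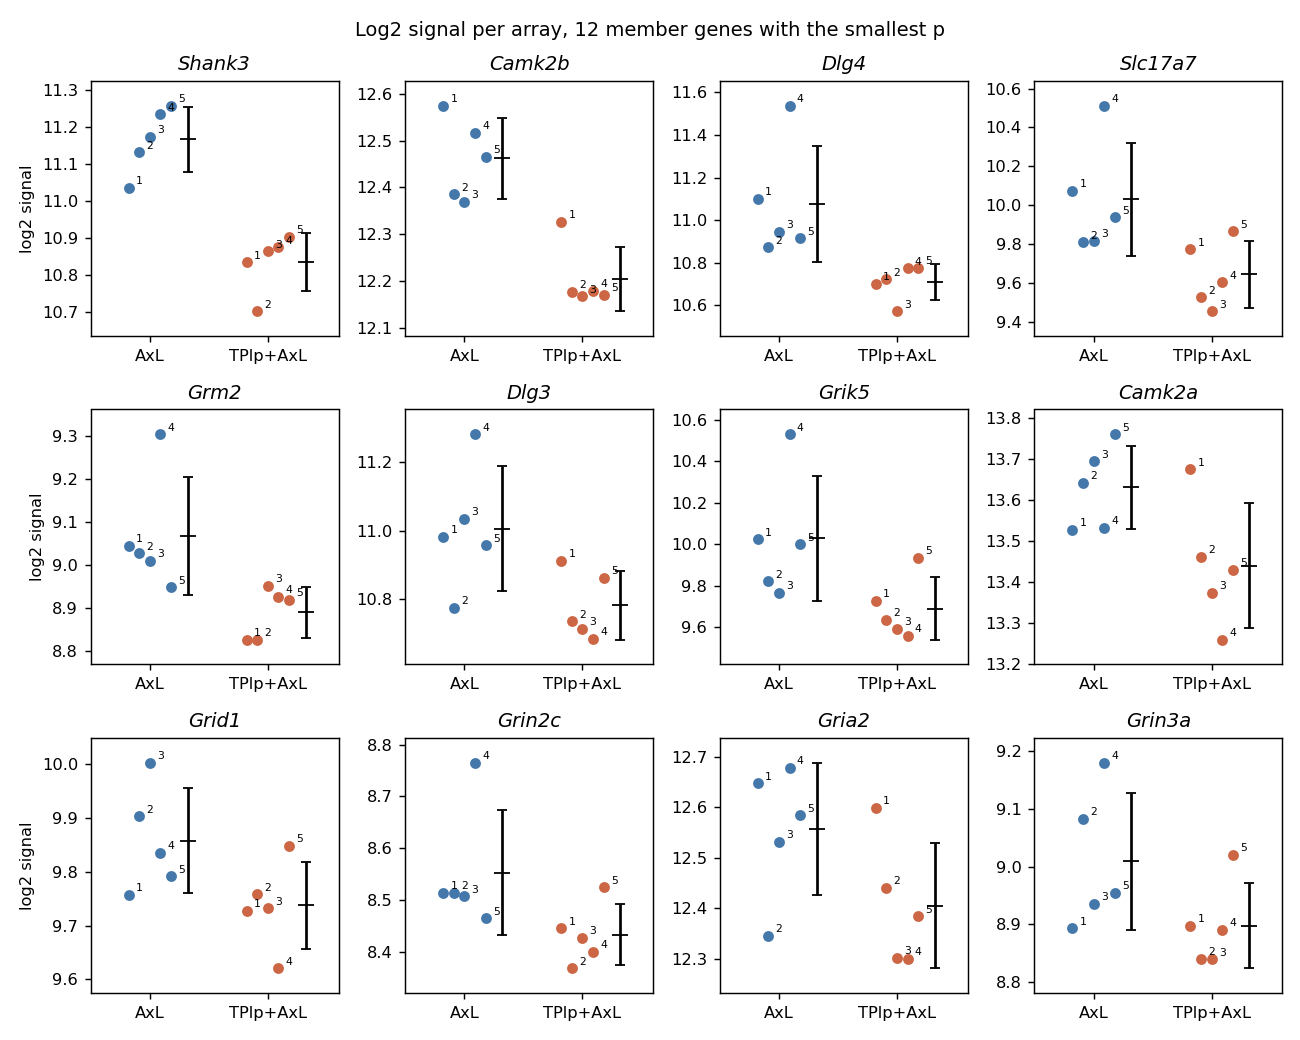
Log2 signal (vertical axis) in each AxL (blue) and TPlp+AxL (orange) array, numbered by replicate, for the 12 member genes with the smallest p; black bars are the mean and SD of 5 arrays. Shank3, Camk2b and Dlg4 are the panels without overlap between groups, and AxL 4 is the highest array in Dlg4, Slc17a7, Grm2, Dlg3, Grik5, Grin2c, Gria2 and Grin3a.

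CaMKII is built from alpha and beta subunits, the second of which also binds actin. Camk2b (beta) had log2 signals of 12.57, 12.39, 12.37, 12.52 and 12.47 in AxL and 12.33, 12.18, 12.17, 12.18 and 12.17 in TPlp+AxL. All 5 TPlp+AxL arrays were below the AxL arrays, and 4 of them read 12.17 or 12.18. The mean fell from 12.46 ± 0.09 (SD, n = 5) to 12.20 ± 0.07 (SD, n = 5), or to 83.6% of the AxL signal (log2 change -0.26, SE 0.05, adjusted p = 0.03555). The median change of probe sets at its level was -0.14, and 8.41% of those 452 had a more negative change than Camk2b. It passed without AxL 2, AxL 3 or TPlp+AxL 1 and not without any of the other 7 arrays, where the change was -0.26 to -0.23 and the adjusted p ran from 0.0700 to 0.115. With a trended and robust variance the change was the same and the adjusted p was 0.0898.

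Camk2a (alpha), among the most abundant transcripts of forebrain excitatory neurons, had 13.53, 13.64, 13.69, 13.53 and 13.76 in AxL and 13.68, 13.46, 13.37, 13.26 and 13.43 in TPlp+AxL. The groups overlapped through TPlp+AxL 1. Its log2 change of -0.19 (SE 0.07, adjusted p = 0.279) was close to the median of -0.15 at its level. Of the 5 further Camk2a probe sets 4 were negative and 1 positive, from -0.30 to 0.04, and none passed.

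Of the 3 TARPs, auxiliary subunits that carry AMPA receptors to the membrane and slow their closing, 0 passed, and all 3 were negative. Cacng2 (stargazin) had a log2 change of -0.09 and Cacng8, abundant in the hippocampus, -0.10. Cacng3 had -0.19 (SE 0.12, adjusted p = 0.487), with AxL arrays from 8.29 to 8.90 around a median of 8.56 and TPlp+AxL arrays from 8.24 to 8.60 around 8.31, so that the ranges overlapped widely. Without AxL 4, the highest array in both, Cacng3 had -0.11 and Cacng8 -0.03.

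None of the 15 measured subunits of ionotropic receptors passed in limma (2 at an unadjusted p under 0.05, Grik5 and Grid1, both lower), and 11 were negative and 4 positive with a median of -0.10. Beside this, 12.1% of all genes were lower at an unadjusted p under 0.05 in limma and 62.7% were negative. For the AMPA receptor, 0 of 4 subunits passed. Gria2, whose protein makes the channel impermeable to calcium after RNA editing, had 12.65, 12.35, 12.53, 12.68 and 12.58 in AxL and 12.60, 12.44, 12.30, 12.30 and 12.38 in TPlp+AxL, with overlap. This was a log2 change of -0.15 (SE 0.07, adjusted p = 0.366). The probe sets of Gria2 did not point the same way. A second one had 0.05 (95% interval -0.09 to 0.20), and the other had 0.15 (95% interval -0.01 to 0.31).

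Gria1, the main partner of Gria2 in hippocampal pyramidal cells, had a change of -0.14 (95% interval -0.32 to 0.03) and -0.20 in its second probe set. Gria3 had 0.12 (95% interval -0.08 to 0.31), and its second probe set 0.12, while the median change at its signal level was -0.11. Its AxL arrays read 11.18, 10.81, 10.85, 11.19 and 10.95 and its TPlp+AxL arrays 11.35, 11.04, 10.9988, 11.07 and 11.11. The 2 sets of values overlapped, with TPlp+AxL 1 highest. Gria3 had a change near 0 without AxL 3, AxL 5 and TPlp+AxL 1 (-0.01). Gria4, a subunit found mostly in interneurons and glia, had -0.05, and its 2 other probe sets were positive (0.09 and 0.06).

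For the NMDA receptor, 0 of 5 measured subunits passed, and in their brightest probe sets the changes of all 5 lay below the median of probe sets of their level. Measured from that median, the other probe sets had -0.05, 0.05 and 0.03 (Grin2b), -0.06 (Grin2d) and -0.07 and 0.03 (Grin3a). Grin2c, a subunit of cerebellar granule cells and some interneurons and astrocytes, had 8.51, 8.51, 8.51, 8.77 and 8.46 in AxL and 8.45, 8.37, 8.43, 8.40 and 8.52 in TPlp+AxL. Apart from AxL 4 the values of both groups lay between 8.37 and 8.52, and the change of -0.12 (SE 0.06, adjusted p = 0.364) was -0.07 without that array. Grin3a, which lowers the calcium permeability of the receptor, had 8.89, 9.08, 8.94, 9.18 and 8.95 in AxL and 8.90, 8.84, 8.84, 8.89 and 9.02 in TPlp+AxL. They overlapped (log2 change -0.11, SE 0.06, adjusted p = 0.411), and the change was -0.07 without AxL 4.

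Grin2b, the subunit that dominates early in development and persists in forebrain, had a change of -0.19 (SE 0.12, adjusted p = 0.483), or -0.08 without AxL 4, where it read 12.26 against at most 11.91 in the other arrays. Grin2a, the subunit that joins it in mature synapses, had 0.004 (95% interval -0.08 to 0.09) from a single probe set with a mean signal of 7.25. Grin2d had -0.07 (adjusted p = 0.431). The other probe sets of Grin2b had changes of -0.16, 0.07 and 0.05.

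For the kainate receptor, 0 of 5 subunits passed, and they spanned the most negative and the most positive changes of all ionotropic subunits. Grik5, a high-affinity subunit that needs a partner from Grik1 to Grik3 to form a channel, had 10.02, 9.82, 9.76, 10.53 and 9.9991 in AxL and 9.73, 9.64, 9.59, 9.56 and 9.93 in TPlp+AxL. Overlap came from TPlp+AxL 5, and AxL 4 was the highest array. The change was -0.34 (SE 0.13, adjusted p = 0.276), more negative than all but 0.724% of the 2349 probe sets at its level, and it was -0.21 without AxL 4. Grik3 had 0.20 (95% interval -0.09 to 0.50), from 8.52, 8.93, 8.79, 9.19 and 8.46 in AxL to 8.79, 8.78, 9.09, 9.04 and 9.19 in TPlp+AxL. It spread more within AxL (SD 0.30) than the 2 means differed, its change was 0.30 without AxL 4, and its second probe set had -0.06. Grik1 had 0.10, Grik2 -0.01 and Grik4, a subunit of the mossy fibre synapses of CA3, -0.10.

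Grid1, a delta receptor that links the synapse to presynaptic neurexin through cerebellin rather than passing current from glutamate, had 9.76, 9.90, 10.0029, 9.84 and 9.79 in AxL and 9.73, 9.76, 9.73, 9.62 and 9.85 in TPlp+AxL. The groups overlapped (log2 change -0.12, SE 0.05, adjusted p = 0.347). The median change at its level was -0.08, and 29.8% of those 2446 probe sets had a more negative change.

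**Figure D2:**
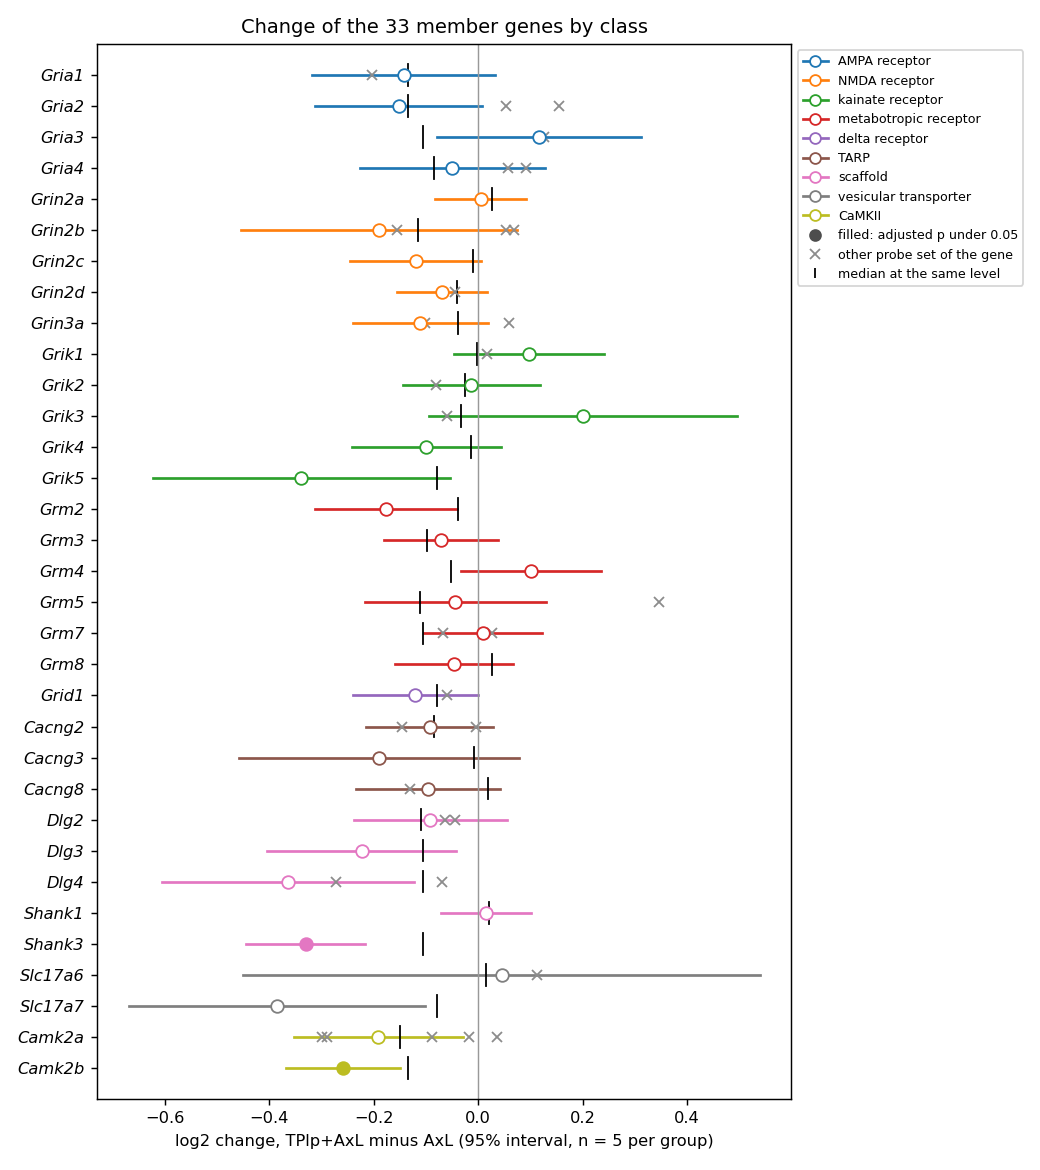
Log2 change of TPlp+AxL minus AxL (horizontal axis) with its 95% interval for the 33 member genes, coloured by class; filled circles passed an adjusted p under 0.05, crosses are other probe sets of the gene and black ticks the median change of probe sets at the same signal level. Shank3 (-0.33) and Camk2b (-0.26) are the filled circles, and crosses fall on both sides of 0 for Gria2, Gria4, Grin2b, Grin3a, Grik3, Grm5, Grm7 and Camk2a together with the gene's own circle.

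Among the metabotropic receptors, G protein-coupled and mostly presynaptic brakes on release apart from Grm5, 0 of 6 passed in limma. At an unadjusted p under 0.05, 1 of them was lower, beside 12.1% of all genes. This was Grm2, an autoreceptor of mossy fibre and perforant path terminals, with 9.05, 9.03, 9.01, 9.31 and 8.95 in AxL and 8.83, 8.83, 8.95, 8.93 and 8.92 in TPlp+AxL. The groups met at AxL 5 and TPlp+AxL 3 (log2 change -0.18, SE 0.06, adjusted p = 0.241), and the change was -0.12 without AxL 4. Grm3, which astrocytes also express, had -0.07, Grm7 0.01 and Grm8 -0.05. Grm4 had 0.10 (95% interval -0.03 to 0.23), where the median change at its level was -0.05.

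Grm5, the postsynaptic receptor that couples to calcium release and binds Homer, had -0.04 (95% interval -0.22 to 0.13). A second Grm5 probe set had 0.35 (95% interval -0.09 to 0.78, adjusted p = 0.445). It read 10.96, 9.78, 10.17, 10.16 and 9.98 in AxL and 10.76, 10.67, 10.53, 10.74 and 10.07 in TPlp+AxL. Its highest value was in AxL 1, and 4 TPlp+AxL arrays lay above the other 4 AxL arrays.

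The vesicular glutamate transporters load synaptic vesicles and mark the main excitatory pathways, Slc17a7 (VGLUT1) those of cortex and hippocampus and Slc17a6 (VGLUT2) those of thalamus and brainstem. Slc17a7 had 10.07, 9.81, 9.82, 10.51 and 9.94 in AxL and 9.77, 9.53, 9.45, 9.60 and 9.87 in TPlp+AxL. Only TPlp+AxL 5 reached into the AxL range, and AxL 4 was highest. The change of -0.39 (SE 0.13, adjusted p = 0.220) was the most negative of the 33 genes in the deposited values and under both renormalizations, with 0.252% of the 2377 probe sets of its level more negative, and was -0.27 without AxL 4.

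Slc17a6 had 7.33, 8.30, 8.55, 8.34 and 8.05 in AxL and 7.63, 7.96, 8.45, 8.23 and 8.52 in TPlp+AxL. Replicate 1 was lowest in both groups, and the spread within AxL (SD 0.47) was the largest of all members. The change was 0.04 (95% interval -0.45 to 0.54) and turned to -0.15 without AxL 1. Averaged, the 6 thalamic markers stood at 0.04 from their own means in AxL 1 and at -0.01 in TPlp+AxL 1. In TPlp+AxL 1, Lef1 (7.94) had its lowest and Rora (9.92) its highest value of the 10 arrays. The part of the thalamic markers in the Slc17a6 values was not tested. The second Slc17a6 probe set had 0.11 and ran from 7.06 in AxL 4 to 7.47 in TPlp+AxL 3.

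**Figure D3:**
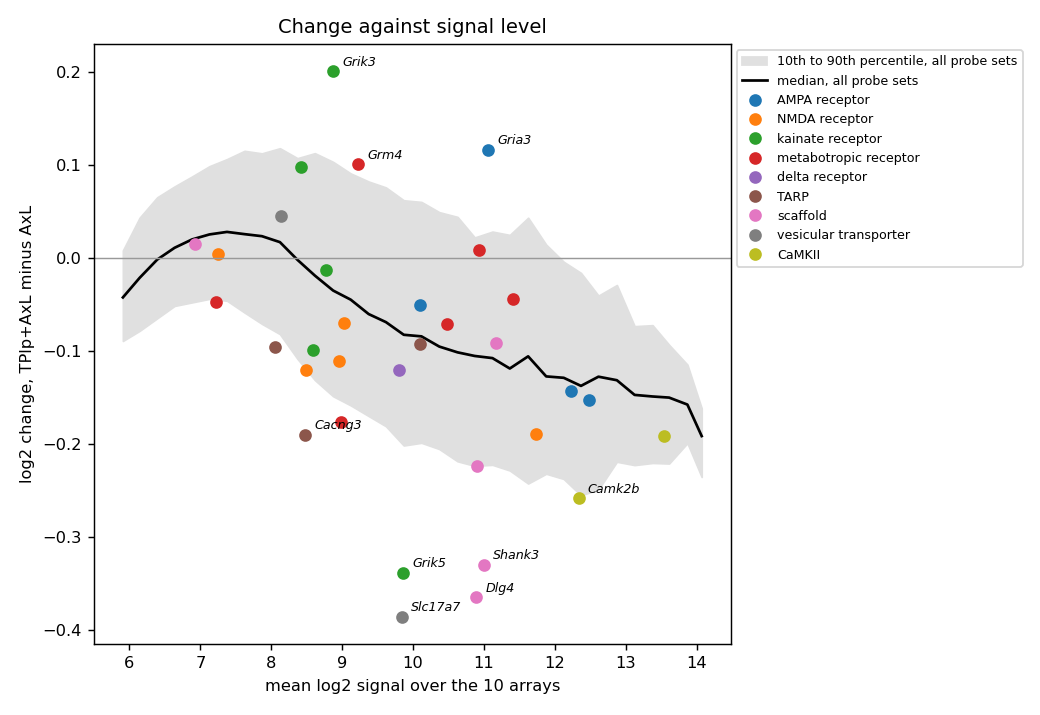
Log2 change (vertical axis) against mean log2 signal over the 10 arrays (horizontal axis) for the 33 member genes, over the median (line) and the 10th to 90th percentile (grey) of all probe sets. The median falls below 0 as signal rises, and Slc17a7, Dlg4, Grik5 and Shank3 lie farthest under the grey band. Some other members lie near or below its lower edge, and Grik3, Gria3 and Grm4 lie above it.

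The median log2 change of the members was -0.10, with 25 negative and 8 positive, beside a median of -0.03 over the brightest probe set of each of the 18193 genes, of which 62.7% were negative, and 51.7% over all probe sets. Signal level moved with this result. The 15 members with a mean signal of at least 10 had a median of -0.14 and 13 negative, beside -0.11 and 85.6% negative for all probe sets of that range, and the 18 dimmer members had -0.08 and 12 negative. Measured from the probe sets of its own level, the median member was 0.03 lower, with 22 below and 11 above. After quantile normalization was repeated the median was -0.03 with 22 negative, and after cyclic loess -0.03 with 22 negative. The groups did not overlap in 3 members, all lower (Shank3, Camk2b and Dlg4), beside 1.64% of all probe sets, 2.35% of all genes and 4.86% of the probe sets with a mean signal of at least 10. At an unadjusted p under 0.05, 9 of 33 members were lower beside 12.1% of all genes, and of the 15 brighter members 5 were lower and 0 higher beside 26.5% and 1.74% of that range.

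**Figure D4:**
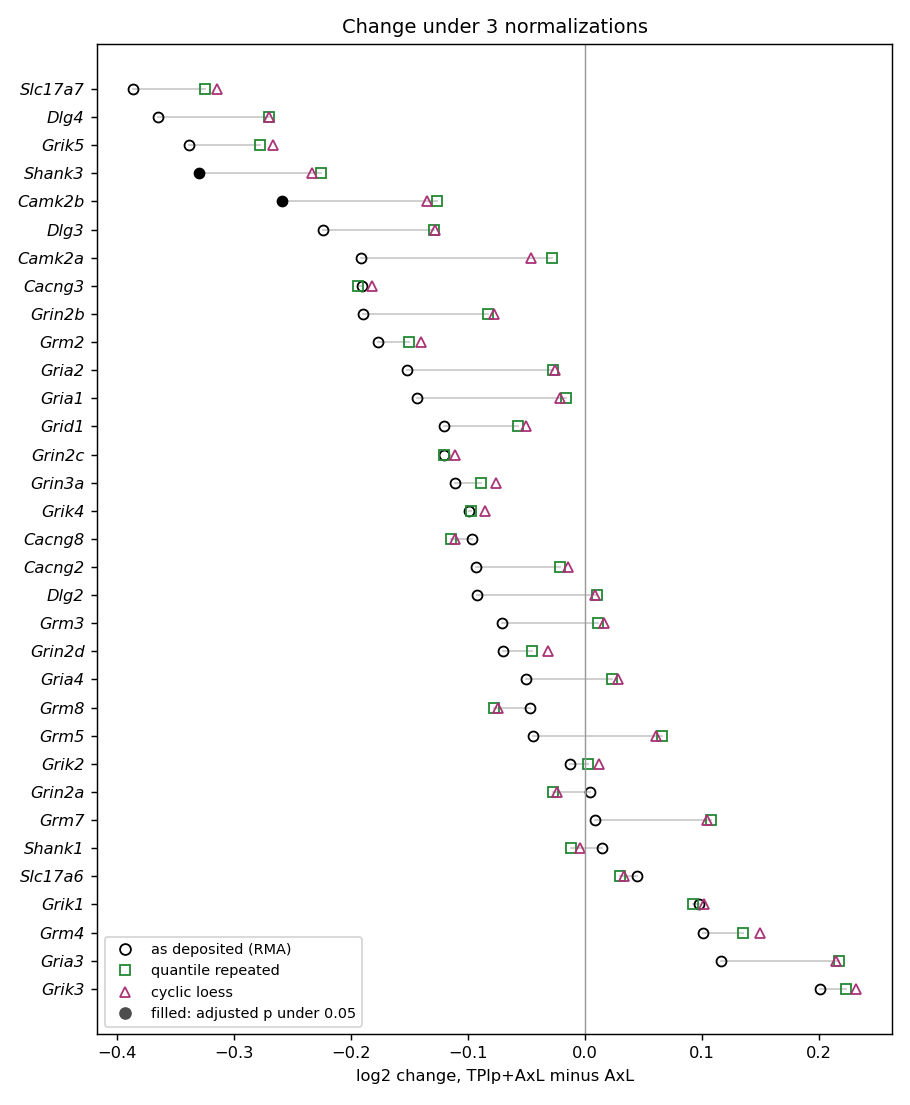
Log2 change of the 33 member genes (horizontal axis) in the deposited RMA values (circles), after repeated quantile normalization (squares) and after cyclic loess (triangles); filled symbols passed an adjusted p under 0.05. Filled symbols occur in the deposited values alone, and Slc17a7, Dlg4, Grik5 and Shank3 keep the most negative changes under all 3.

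AxL 4 moved with many of these values. It was the highest of the 10 arrays in 16 of the 33 members, beside 23.1% of all probe sets and 43.6% of those with a mean signal of at least 10. The mean of the members in AxL 4 was 0.21 above their overall mean, where the other arrays ran from -0.09 to 0.04, and the probe sets of the same level were 0.10 above theirs. The neuronal markers were highest there as well (0.15), though those in AxL 1, AxL 3 and AxL 5 were close (0.10 to 0.11). The SD within AxL exceeded that within TPlp+AxL in 30 of 33 members, beside 67.7% of all probe sets and 75.3% of those with a mean signal of at least 10. Without AxL 4, Shank3 passed (-0.31) and Camk2b, with a change of -0.25 against -0.26, did not (adjusted p = 0.0700). Of the 9 members with an unadjusted p under 0.05, Dlg4, Slc17a7 and Grik5 had the largest shifts without AxL 4, to -0.25, -0.27 and -0.21.

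**Figure D5:**
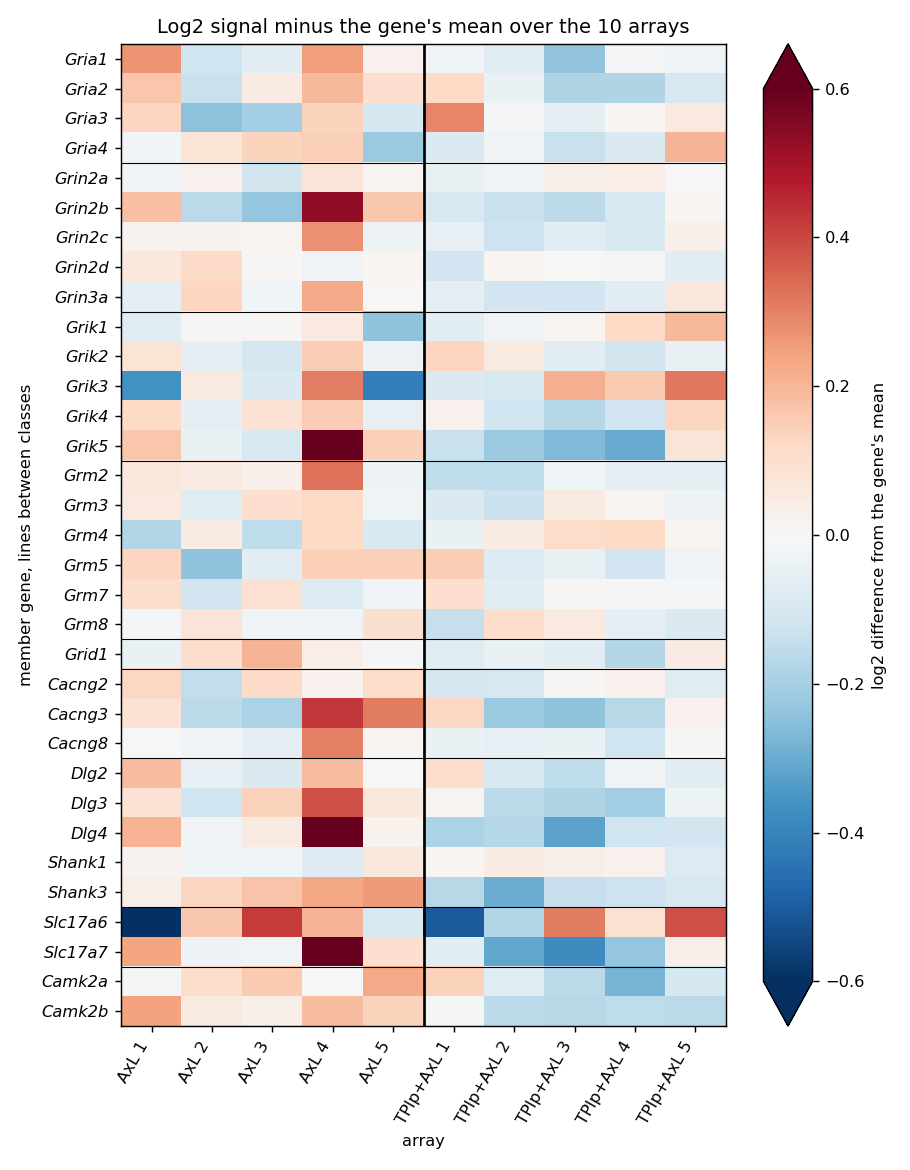
Log2 signal of the 33 member genes in each array minus the gene's mean over the 10 arrays (colour, saturating at 0.6), with AxL left and TPlp+AxL right of the black line and thin lines between classes. The AxL 4 column is the highest in 16 genes, and Slc17a6 is lowest in AxL 1 and TPlp+AxL 1.

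Cell markers were read on the same arrays. Neuronal markers were negative in 8 of 8, with a median log2 change of -0.19 and 0 past the threshold in limma (5 at an unadjusted p under 0.05). Their mean per array ran from 0.02 to 0.15 in AxL and from -0.19 to 0.07 in TPlp+AxL, relative to each gene's mean. Markers of hippocampal excitatory neurons had a median of -0.11, with 6 of 8 negative and 0 passing in limma (2 at an unadjusted p under 0.05). They ran from -0.29 (C1ql2) to 0.10 (Prox1), and Neurod6 (0.05) was positive as well. Inhibitory neuron markers such as Gad1 and Sst had -0.15, with 7 of 7 negative, 0 passing and 0 at an unadjusted p under 0.05. Astrocyte markers had -0.12, with 0 of 7 passing in limma, and oligodendrocyte markers -0.21, with 0 of 6 passing (2 and 4 at an unadjusted p under 0.05). Of all probe sets with a mean signal of at least 10, 85.6% were negative. In limma 26.5% of them were lower at an unadjusted p under 0.05. Measured from the probe sets of its own level, the median neuronal marker was at -0.05, with 5 below and 3 above. The same measure was 0.01 for hippocampal excitatory, -0.05 for inhibitory, 0.01 for astrocyte and -0.09 for oligodendrocyte markers.
Of 5 measured T cell markers 2 rose, Cd3d (0.63) and Cd3g (0.87), and the list mean ran from -0.22 to -0.08 in AxL and from 0.07 to 0.34 in TPlp+AxL. Microglial markers had a median of -0.09 with 0 of 5 passing in limma (1 at an unadjusted p under 0.05, Aif1, with a positive change of 0.40), endothelial markers -0.25 with 0 of 4 (3 at an unadjusted p under 0.05) and oligodendrocyte precursor markers -0.11 with 0 of 2 (0 at an unadjusted p under 0.05). The endothelial markers had mean signals from 7.21 to 9.60, and 12.1% of all genes were lower at an unadjusted p under 0.05 in limma. Their groups were separate in Slco1a4, with TPlp+AxL lower (-0.33, adjusted p = 0.0599), beside 2.35% of all genes. Measured from the probe sets of the same level, the list medians were 0.16 for T cell, -0.01 for microglial, -0.20 for endothelial and -0.06 for precursor markers. The part of these cells in the values of Shank3 and Camk2b was not tested.

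Other genes of the excitatory synapse were described from a further list of 46, of which 38 were measured. In this list 1 gene fell and 0 rose (11 lower and 1 higher at an unadjusted p under 0.05), and the median log2 change was -0.11, with 27 negative. Of all genes 0.28% were called lower and 0.978% higher. In limma 12.1% of all genes were lower at an unadjusted p under 0.05, and 62.7% were negative. Measured from the probe sets of its own level, the list had a median of -0.03. Nrgn, neurogranin, a postsynaptic protein that binds calmodulin and thereby sets its supply to CaMKII, had 12.32, 12.39, 12.48, 12.37 and 12.38 in AxL and 12.07, 12.18, 12.13, 12.08 and 12.14 in TPlp+AxL. The groups did not overlap, and the fall was 0.27 on the log2 scale (SE 0.04, adjusted p = 0.00780). The median change of the 460 probe sets at its level was -0.13, and 7.83% of them had a more negative change. Nrgn passed with any single array left out. It did not pass after quantile normalization was repeated (-0.13, adjusted p = 0.308), after cyclic loess (-0.15, adjusted p = 0.241) or without AxL 3, AxL 5 and TPlp+AxL 1 together (-0.23, adjusted p = 0.190). Of all probe sets, 1 passed in the last of these settings.

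The next smallest p values belonged to Camk2n1, an inhibitor of CaMKII (-0.23, adjusted p = 0.0810), Dlgap3, a scaffold between PSD-95 and Shank3 (-0.34, adjusted p = 0.0825), and Nsf, which binds the Gria2 tail and drives receptor recycling (-0.21, adjusted p = 0.118). After quantile normalization was repeated their changes were -0.03, -0.29 and -0.07, and after cyclic loess -0.08, -0.28 and -0.07. With all probe sets of a gene averaged they were -0.13, -0.34 and -0.04. At the levels of Camk2n1, Dlgap3 and Nsf the median changes were -0.17, -0.07 and -0.15. The groups were separate in Camk2n1 and Dlgap3, with TPlp+AxL lower, and overlapped in Nsf. In 4 of the 38 genes the groups were separate, all lower (Nrgn, Camk2n1, Dlgap3 and Homer3), beside 2.35% of all genes. The most negative values of the list, Arc (-0.46, adjusted p = 0.497) and Nptx2 (-0.41, adjusted p = 0.448), belonged to genes that neuronal activity induces, and neither passed. AxL 4 was the highest array in both, with 10.93 for Arc (9.16 to 9.63 in the other AxL arrays) and 10.35 for Nptx2 (8.88 to 9.06). Without AxL 4 the changes were -0.14 and -0.13. Averaging the probe sets of a gene gave -0.46 for Arc and -0.17 for Nptx2.

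Probe sets of a single gene did not always move together. Of the 19 members with more than 1 probe set, 11 had changes of 1 sign in all of them and 8 had both signs. The 32 further probe sets had a median log2 change of -0.05, ran from -0.30 (Camk2a) to 0.35 (Grm5), and 0 passed in limma (3 at an unadjusted p under 0.05, all lower). Shank3 and Camk2b each had 1 probe set under the rule, so no second reading of either is given.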

How the data were processed

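The deposited values are log2 signals, and the submitters' processing notes name RMA as the authors' method. Its software, version and probe set definitions were not given in the sources used here. RMA has no detection call, so dim probe sets may carry little signal. The distributions of the deposited arrays were not alike. Their interquartile ranges ran from 1.83 (TPlp+AxL 2) to 2.11 (AxL 4) and their 99th percentiles from 12.73 to 13.04. The 64 control probe sets were left out and 45037 tested. Of these, 34945 had 1 gene symbol in the platform annotation, 932 several and 9160 none. Of the probe sets with 1 symbol, 34741 were matched by Entrez identifier to a RefSeq table of GRCm38.p6, whose symbol was used.

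The 2 groups were fitted with limma 3.58.1 (lmFit and eBayes, R 4.3.3). P-values were adjusted by Benjamini and Hochberg's method across every tested probe set, and 0.05 was the threshold. All adjusted p-values come from limma. With 1 array per mouse, p-values weigh the difference between groups against the variation between arrays of a group. That variation holds differences between mice, dissections and arrays together, and the number of arrays limits the precision. Probe sets of the same level lie within 0.25 log2 of a member's mean signal. Signals of different probe sets were not compared as abundances. Members in full are those past the threshold and the 12 with the smallest p. Related genes named are those past the threshold and those with the 3 smallest p. Nsf, Arc, Nptx2 and Homer3 were also named, chosen after their values were seen. The values of Gria3, Grik3 and Slc17a6 by array and of the second Grm5 probe set were also chosen after they were seen. The members and lists were chosen with earlier results of these data known. The script was tested on simulated data. Replicate numbers were not taken to pair mice. Alternatives were repeated quantile and cyclic loess normalization, median centring, trended and robust variance, leaving out the dimmest 25% of probe sets, 1 or averaged probe sets per gene, a replicate block, each array left out and a threshold of 0.10. Leaving out 3 arrays together was added after seeing the data.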

Additional observations from a re-analysis of the deposited data

Results flagged for a closer look

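In 6 of 66 groups of 5 arrays, 1 array lay apart by Dixon's criterion (the gap to its neighbour was over 0.71 of the range), and chance gives about 1 in 20. AxL 4 was high in Grin2c (8.77, next 8.51), Grm2 (9.31, next 9.05) and Cacng8 (8.36, next 8.07). TPlp+AxL 1 was high in Camk2b (12.33, next 12.18), the value nearest to the AxL arrays. TPlp+AxL 3 was low in Gria1 (11.99, next 12.15) and TPlp+AxL 5 in Shank1 (6.84, next 6.94).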

How the results depend on the processing

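The 2 members called became 0 after quantile normalization was repeated, after cyclic loess and without AxL 3, AxL 5 and TPlp+AxL 1 together. In these settings limma gave 9, 10 and 11 members at an unadjusted p under 0.05, of which 8, 8 and 11 were lower. With a trended and robust variance 1 was called, Shank3, and 1 to 2 with 1 array left out. The calls among member probe sets were the same in number (16, 15 and 16 at an unadjusted p under 0.05). The related genes called, 1 in the deposited values, became 0, 0 and 0 under the first 3 settings (10, 9 and 12 at an unadjusted p under 0.05), 2 with array medians subtracted, 3 at a threshold of 0.10 and 1 to 2 with 1 array left out. Over all probe sets 376 calls (85 lower and 291 higher) became 241 with the replicate block, 757 at a threshold of 0.10, 185 to 460 with 1 array left out (220 without AxL 5, 240, 185 and 243 without TPlp+AxL 3, 4 and 5) and 1 without the 3 arrays (4743 at an unadjusted p under 0.05). They split into 210 lower and 269 higher with medians subtracted and 43 and 348 after cyclic loess. The median member change of -0.10 was -0.0282 after quantile normalization, -0.0311 after cyclic loess and -0.11 to -0.07 with 1 array left out. The replicate block changed no member call. Deviations of same-numbered arrays correlated at -0.13, 0.36, 0.27, -0.22 and -0.08, not all above 0.1, so the numbers were not taken as pairs, and 1 of 5 AxL arrays correlated best with its own number.

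Members whose sign turned passed in no setting. After quantile normalization and cyclic loess these were Gria4 (0.0235 and 0.0286), Grin2a (-0.0271 and -0.0237), Grik2 (0.0031 and 0.0119), Grm3 (0.0109 and 0.0165), Grm5 (0.0663 and 0.0611), Dlg2 (0.01 and 0.0089) and Shank1 (-0.0122 and -0.0043). With medians subtracted they were Grin2a (-0.0237), Grm7 (-0.0194) and Shank1 (-0.0135), with averaged probe sets Gria2 (0.0183), Gria4 (0.0332), Grm5 (0.1509) and Grm7 (-0.0107), and without the 3 arrays (chosen after seeing the data) Gria3 (-0.0051) and Grin2a (-0.0154). With 1 array left out the signs of Grin2a (-0.0226 to 0.0242), Grik2 (-0.0471 to 0.022), Grm7 (-0.0195 to 0.0357), Shank1 (-0.0032 to 0.037) and Slc17a6 (-0.15 to 0.18) turned. The cause of these changes was not tested. Leaving out the dimmest 25% of probe sets removed Shank1 and changed no member call.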
